A study of Caenorhabditis elegans with 4 samples.

Results

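The peaks described here are the regions of chromosome II that were called as bound by the transcription factor PEB-1 in Caenorhabditis elegans. They are all chromosome II intervals of the authors' combined peak list, 283 of 1854 peaks in all (15.3%, 95% exact binomial interval 13.7 to 17.0), and chromosome II makes up 15.2% of the genome span. The assay was ChIP-seq (sequencing of DNA recovered by chromatin immunoprecipitation), and the worms were hermaphrodite larvae of the second stage (L2), grown at 20 °C. The study holds 4 libraries, which are 2 ChIP libraries and their 2 inputs (total chromatin kept back before the antibody was added). All 4 come from strain OP86. It is mutant for unc119(ed3) and carries the transgene wgIs86, which holds peb-1 fused to the TY1, EGFP and FLAG tags beside an unc119 copy, so ChIP and input worms share the same alleles. The transgene was introduced by particle bombardment, its place of insertion is not given in the sources used here, and the antibody recognises GFP. Tagged PEB-1 was therefore mapped in whole larvae, and a peak cannot be assigned to one tissue.

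PEB-1 contacts DNA through a zinc finger of the FLYWCH type. It was identified through its binding to an enhancer of myo-2, a myosin gene of the pharyngeal muscle, and cells of the pharynx, with which the worm feeds, are among those that express it. The autosomes of C. elegans have a gene-rich centre with little recombination, flanked by arms that are richer in repeats and recombine more often. Chromosome II was divided here into a left arm, a centre and a right arm of equal length, 5.09 Mb each, by the midpoint of each peak. These names stand for equal parts, whose limits were not set by recombination or repeats. Coordinates are on WormBase build WS220, and no strand is given for a peak. No genome sequence or gene annotation of this build was used here, so peaks are described by position and not by gene.

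Each list gives a q-value per peak, which is the estimated false discovery rate among peaks called at that strength or above, and −log10 q is used below as its strength, with larger values for stronger calls. The deposited lists give no read count, fold enrichment or depth. On chromosome II the replicate 1 list holds 201 peaks and the replicate 2 list 23. Over the genome they hold 1095 and 153. The combined list was made from the same ChIP libraries, so overlap with a replicate list is a measure of support and not independent evidence of binding. With 1 list per replicate no test of binding over replicates can be made. All intervals in brackets are 95% exact binomial intervals, which cover counting error only and treat peaks as independent, although neighbouring peaks may share a source.

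The peaks of chromosome II were few on the left arm and more numerous in the centre and on the right arm. The left arm held 43 peaks (15.2%, interval 11.2 to 19.9), the centre 115 (40.6%, interval 34.9 to 46.6) and the right arm 125 (44.2%, interval 38.3 to 50.2). Each part covers 33.3% of the length. The interval of the left arm lies wholly below that share, and those of the centre and the right arm wholly above it. As densities these are 8.45, 22.6 and 24.6 peaks per Mb. The right arm was uneven and not dense throughout. Its Mb from 11 to 12 held 32 peaks, while those from 12 to 13, 13 to 14 and 14 to 15 held 16, 15 and 21. The replicate 1 list had the same low left arm, with 37 of 201 peaks there (18.4%, interval 13.3 to 24.5), 87 in the centre (43.3%, interval 36.3 to 50.4) and 77 on the right arm (38.3%, interval 31.6 to 45.4). The replicate 2 list gave no such picture. Its 23 peaks fell 7 on the left arm (30.4%, interval 13.2 to 52.9), 5 in the centre (21.7%, interval 7.46 to 43.7) and 11 on the right arm (47.8%, interval 26.8 to 69.4), and with so few peaks all of these intervals include 33.3%.

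**Figure D1:**
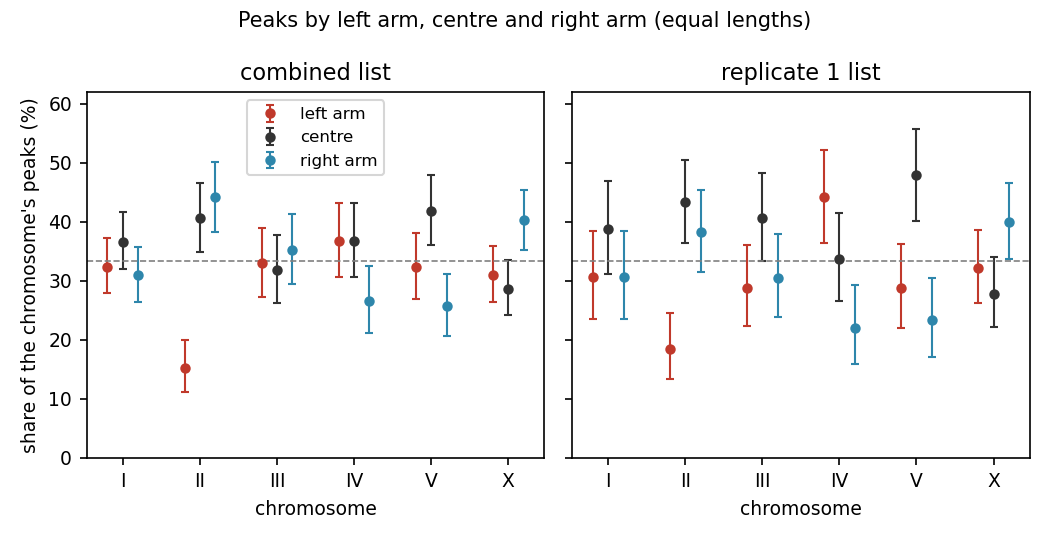
Share of each chromosome's peaks (vertical axis, percent) on the left arm, in the centre and on the right arm for the combined list and the replicate 1 list, with 95% exact binomial intervals as bars and the share of length, 33.3%, as a dashed line. The left arm of chromosome II is the lowest point in both panels, at 15.2% and 18.4%.

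On the other chromosomes the left part held between 31.1% (X) and 36.7% (IV) of the combined peaks. The interval for the left arm of II did not overlap theirs, of which the lowest limit was 26.4%, on X. In replicate 1 its interval, 13.3 to 24.5, overlapped those of the left parts of I (23.5 to 38.4), III (22.3 to 36.1) and V (22.0 to 36.2), and did not overlap those of IV and X. Among all 18 chromosome parts, the left arm of II had the lowest density in the combined list. In replicate 1 it was the fourth lowest, at 7.27 peaks per Mb, behind the right arms of V and IV and the left arm of V. The centre of chromosome II had the highest replicate 1 density of the 18 parts, at 17.1 per Mb. Chromosome II as a whole had 18.5 combined peaks per Mb, the same as the other chromosomes as a group (18.5). These values are set side by side as a description, and no test between chromosomes was made.

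In bins of 1 Mb, numbered from the left end, the combined count ran from 1 to 36. Bin 11, from 10 to 11 Mb, held the most peaks, 36, of which 3 overlapped both replicates, 16 overlapped replicate 1 only and 17 overlapped neither. Bin 12 followed with 32 and bins 7 and 10 with 28 each. Bins 10 to 12 together held 96 peaks (33.9%, interval 28.4 to 39.8) on 19.7% of the length. At the other end, bin 4 held a single peak, of 162 bp, which overlapped replicate 1. Bins 1, 2, 3 and 5 held 8, 11, 9 and 11 peaks, so that the first 5 bins had 40 peaks (14.1%, interval 10.3 to 18.7) on 32.8% of the length. Bin 9, with 17 peaks, and bins 13 and 14, with 16 and 15, were below their neighbours but close to the median of the full bins, 17. Bin 15 held 21 peaks and the partial bin 16 held 9. The last bin covers 263423 bp, which gives 34.2 peaks per Mb. Counts in the 15 full bins ranked alike in the combined and replicate 1 lists (Spearman's rho = 0.89, Pearson's r = 0.90). They showed no such likeness between the combined and replicate 2 lists (rho = 0.01, r = 0.08), where the replicate 2 counts were 0 to 4 a bin. Bins are parts of the same libraries, so these values describe the lists and carry no test.

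**Figure D2:**
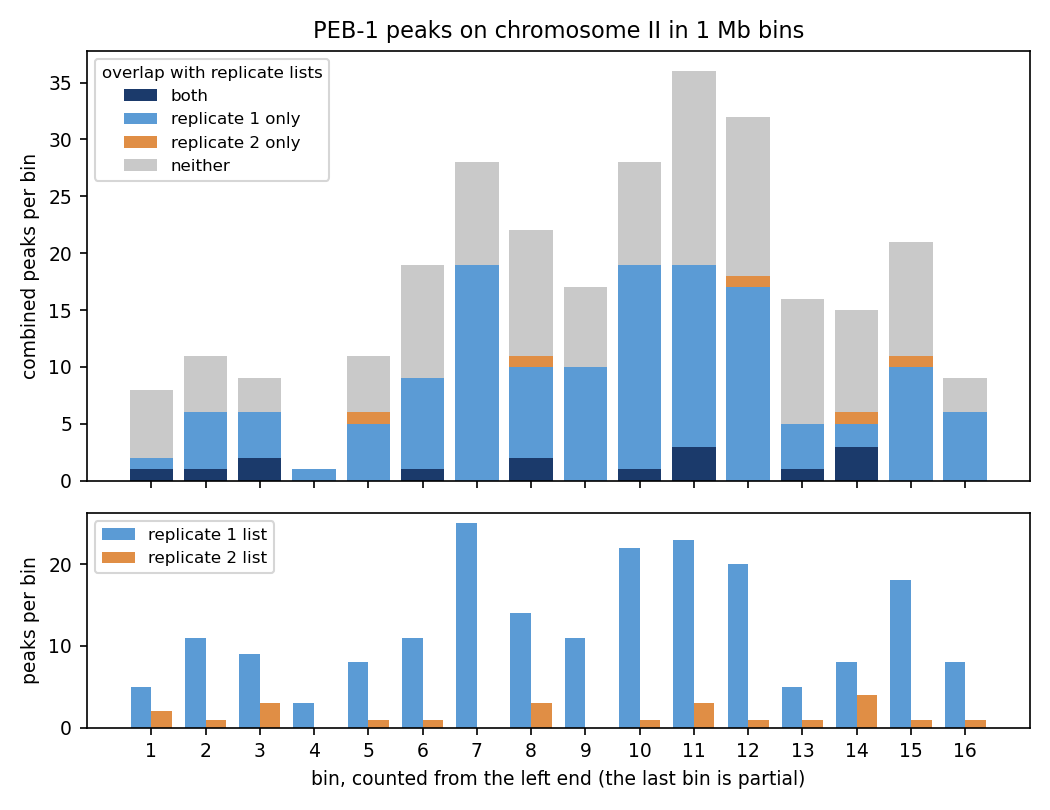
Peaks of chromosome II per 1 Mb bin, counted from the left end, for the combined list (upper panel, bars from 0, coloured by overlap with the replicate lists) and for each replicate list (lower panel). Combined counts are at most 11 in bins 1 to 5, reach 36 in bin 11 and are 16 and 15 in bins 13 and 14.

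The combined and replicate 1 lists differed in size by part. For every replicate 1 peak there were 1.16 combined peaks on the left arm, 1.32 in the centre and 1.62 on the right arm, and 1.41 on the whole chromosome. The share of combined peaks that overlapped replicate 1 was nearly the same on both arms, at 48.8% on the left (21 of 43, interval 33.3 to 64.5) and 47.2% on the right (59 of 125, interval 38.2 to 56.3), and was 60.0% in the centre (69 of 115, interval 50.4 to 69.0). The share of combined peaks found in neither replicate was 48.8% on the left arm (21 of 43, interval 33.3 to 64.5), 39.1% in the centre (45 of 115, interval 30.2 to 48.7) and 50.4% on the right arm (63 of 125, interval 41.3 to 59.5). These intervals overlap one another. In bins 13 and 14, 20 of 31 peaks overlapped neither replicate (64.5%, interval 45.4 to 80.8), against 40 of 96 in bins 10 to 12 (41.7%, interval 31.7 to 52.2), and these intervals also overlap. In the opposite direction, 21 of the 37 replicate 1 peaks on the left arm were recovered in the combined list (56.8%, interval 39.5 to 72.9), against 69 of 87 in the centre (79.3%, interval 69.3 to 87.3) and 60 of 77 on the right arm (77.9%, interval 67.0 to 86.6). The interval of the left arm overlaps each of the others here too.

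The strongest peak of chromosome II nevertheless lay on the sparse left arm. It ran from 1237909 to 1238367 (459 bp) with q = 4.02e-33, the rank 3 peak of the whole combined list. Replicate 1 called it from 1237577 to 1238406 with q = 4.92e-29 and replicate 2 from 1237968 to 1238246 with q = 3.96e-06, at genome ranks 4 and 6. It is the strongest chromosome II peak in all 3 lists. The 3 strongest chromosome II peaks of replicate 2 all lay on the left arm, and each was also in replicate 1. After the one just described came the peak at 66316 to 66767, near the left end, with q = 3.20e-16 in the combined list, 2.34e-10 in replicate 1 and 0.000261 in replicate 2. The next was at 2454921 to 2455199, with q = 2.91e-09, 2.10e-07 and 0.000368 in the same order. These 2 peaks stood at combined ranks 5 and 10 on the chromosome, so replicate 2 did not order its peaks as the combined list did.

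Of the 10 strongest combined peaks that overlapped both replicates, 3 lay on the left arm, 3 in the centre and 4 on the right arm. The strongest outside the left arm was on the right arm at 10502617 to 10503098, with q = 4.62e-21 in the combined list, 6.94e-20 in replicate 1 and 0.000536 in replicate 2. The peak at 9282662 to 9283126, in the centre, was almost as strong in the combined list (q = 1.10e-19) and in replicate 1 (q = 1.79e-18). In replicate 2 it had q = 0.00595 and rank 105 of 153, far below its rank of 11 in replicate 1. The other members on this list had higher q-values in replicate 2 than in replicate 1, but replicate 2 had weaker calls on chromosome II in general. Its median −log10 q there was 2.45, against 2.79 in replicate 1. Its lowest q on chromosome II was 3.96e-06, against 4.92e-29 in replicate 1. Genome ranks did not all fall. The peaks starting at 66316, 2454921, 7405297 and 12965601 had ranks 27, 80, 90 and 151 in replicate 1, and 13, 14, 79 and 37 in the shorter replicate 2 list. The others ranked lower in replicate 2. The peak at 13290883 to 13291988 had q = 5.67e-12, 1.06e-08 and 0.00344 in the combined list, replicate 1 and replicate 2. The one at 5901526 to 5902102 had 1.43e-10, 1.24e-08 and 0.00603. The peaks at 13335023 to 13335747, 7405297 to 7405606 and 12965601 to 12965868 had combined q-values of 1.50e-08, 4.62e-08 and 2.27e-07, and replicate 2 q-values of 0.00471, 0.00462 and 0.00196.

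The 15 peaks in both replicates, 5.30% of the 283 on the chromosome against 4.58% on the other chromosomes, were wide and strong. Their median width was 452 bp (range 231 to 1106), none was under 50 bp, and their median −log10 q was 7.82. They covered chromosome II from 66316 to 13335747, and 7 of them lay on the right arm, with 4 each on the left arm and in the centre. Beyond the 10 above, they comprised a peak at 7406467 to 7406712 that follows the one at 7405297 to 7405606 after 860 bp, and others at 2570289 to 2571029, 10529372 to 10529627, 10203789 to 10204019 and 13167738 to 13167969. The weakest of the 15 was the last of these, with q = 0.000579 in the combined list, 0.00350 in replicate 1 and 0.00863 in replicate 2. A wide peak meets the 1 bp criterion more readily than a short one, and the strengths come from the same libraries, so widths and strengths by support are a description.

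Replicate 1 supported 149 of the 283 peaks (52.7%, interval 46.7 to 58.6) and replicate 2 supported 20 (7.07%, interval 4.37 to 10.7). By class, 15 overlapped both (5.30%, interval 3.00 to 8.59) and 134 replicate 1 only (47.3%, interval 41.4 to 53.3). A further 5 overlapped replicate 2 only (1.77%, interval 0.576 to 4.07) and 129 neither (45.6%, interval 39.7 to 51.6). On the other 5 chromosomes 47.2% of 1571 peaks overlapped replicate 1 (interval 44.7 to 49.7) and 7.07% replicate 2 (interval 5.85 to 8.45). The intervals of both shares overlap those of chromosome II. Chromosome I, which has many combined peaks in neither replicate, lowers both of these shares. Without it, 51.9% of 1170 peaks overlapped replicate 1 (interval 49.0 to 54.8) and 8.38% replicate 2 (interval 6.85 to 10.1). The share in neither replicate was 50.3% on the other 5 chromosomes (interval 47.8 to 52.8) and 45.0% without chromosome I (interval 42.2 to 47.9). Both of these intervals overlap that of chromosome II.

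Support was far more frequent among strong peaks than among weak ones. Among the 20 strongest chromosome II peaks all overlapped replicate 1 (interval 83.2 to 100) and 10 overlapped replicate 2. Among the 71 strongest, 65 overlapped replicate 1 (91.5%, interval 82.5 to 96.8) and 14 replicate 2 (19.7%, interval 11.2 to 30.9). Among the 70 weakest, 11 overlapped replicate 1 (15.7%, interval 8.11 to 26.4) and none replicate 2 (0 of 70, which allows a share of up to 5.13% by the exact interval). The middle 142 peaks, in 2 groups of 71, lay between, with 40 and 33 overlapping replicate 1. Support was likewise more frequent among wide peaks. Peaks under 50 bp overlapped replicate 1 in 15 of 64 cases (23.4%, interval 13.8 to 35.7) and peaks of 50 to under 100 bp in 7 of 27. Peaks of 200 to under 400 bp did so in 61 of 79 cases (77.2%, interval 66.4 to 85.9) and peaks of 400 bp or more in 22 of 26 (84.6%, interval 65.1 to 95.6). Replicate 2 supported 8 of these 26 widest peaks and 2 of the 64 shortest.

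**Figure D3:**
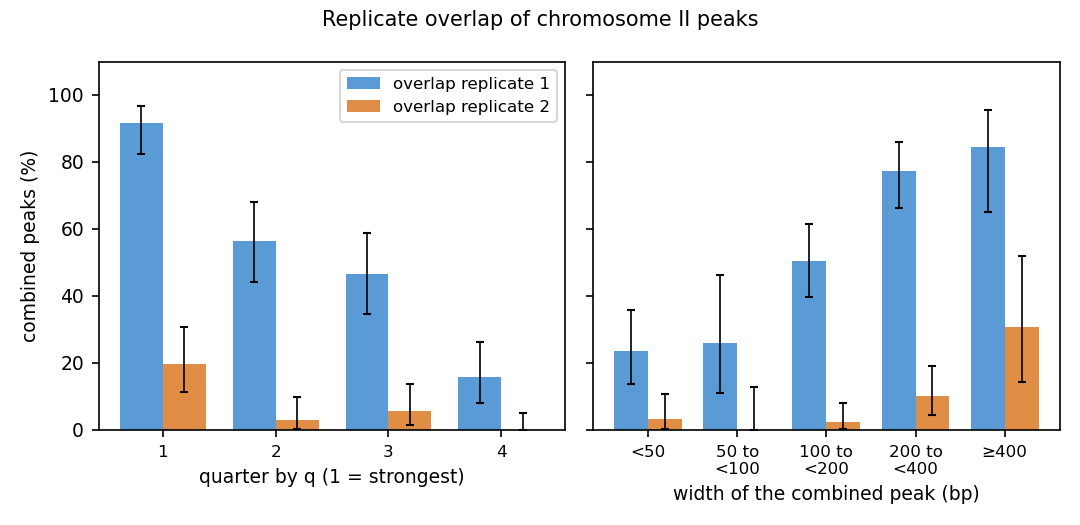
Share of combined chromosome II peaks (vertical axis, percent, bars from 0) that overlapped replicate 1 or replicate 2, by strength in 4 groups of 71, 71, 71 and 70 peaks (left) and by width in bp (right), with 95% exact binomial intervals. Overlap with replicate 1 was 91.5% in the strongest and 15.7% in the weakest group, and 23.4% under 50 bp and 84.6% at 400 bp or more. Strength and overlap come from the same libraries and are not independent.

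Many strong peaks were missing from replicate 2, among them 10 of the 20 strongest on the chromosome, and the 5 strongest of these are described. The first was at 11619873 to 11620483 on the right arm, with q = 8.67e-18 in the combined list and 1.13e-17 in replicate 1, where it had rank 12 in the genome. The nearest replicate 2 peak was 302 kb away. The next were at 8748983 to 8749343 (combined q = 1.31e-10, replicate 1 q = 5.43e-07) and at 9356527 to 9356968 (4.78e-10 and 8.35e-07), both in the centre. The peak at 1246794 to 1247378 (q = 1.63e-08) had its nearest replicate 2 call 8548 bp away, at the strongest peak of the chromosome. The peak at 9284896 to 9285226 (q = 4.43e-08) had its nearest replicate 2 call 1926 bp away, at the rank 3 peak of the chromosome. Replicate 2 has few calls throughout and its depth is unknown, so a peak absent from it was not detected there and is not shown to be unbound.

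The 5 peaks found in replicate 2 and not in replicate 1 ranked between 132 and 207 of the 283 in the combined list. The strongest, at 7679459 to 7679503, was 45 bp wide with q = 0.000514 in the combined list and 0.00504 in replicate 2. It was followed by 13030860 to 13031030 (q = 0.00143 and 0.00636) and 14385313 to 14385345 (q = 0.00201 and 0.00354). The remaining pair, at 4394498 to 4394846 and 11922684 to 11922864, had combined q-values of 0.00231 and 0.00250. Among the 129 peaks in neither replicate, the strongest were narrower than the chromosome II median of 169 bp. They lay on the right arm at 15064843 to 15064929 (87 bp, q = 1.10e-05), 13241053 to 13241195 (143 bp, q = 2.00e-05) and 12458721 to 12458762 (42 bp, q = 3.99e-05). The median distance from a peak in neither replicate to the nearest replicate 1 peak was 17590 bp, and 18 of the 129 (14.0%, interval 8.48 to 21.2) lay within 1000 bp of one.

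Conversely, 51 of the 201 replicate 1 peaks on chromosome II had no counterpart in the combined list. The recovered share was 74.6% (150 of 201, interval 68.0 to 80.5), against 83.1% on the other chromosomes (743 of 894, interval 80.5 to 85.5) so that the upper limit of the first share and the lower limit of the second are both 80.5%. The single chromosomes other than II ranged from 81.6% (IV) to 86.0% (I). The 51 peaks were short and weak, with a median width of 49 bp and a median −log10 q of 2.43, against 200 bp and 2.91 for the recovered ones. The strongest was at 10248390 to 10248542 (153 bp, q = 0.000248), followed by 3055649 to 3055737 (q = 0.000268) and 3998231 to 3998288 (q = 0.000534). The last 2 lie on the left arm, in and near the longest stretch without a combined peak. The next were at 6898098 to 6898143 (q = 0.000833) and 6411880 to 6411889 (q = 0.00111). Replicate 2 had 3 chromosome II peaks without a combined counterpart. The strongest was at 131 to 500, at the very left end of the chromosome, where it covered 370 bp with q = 0.00153, while the first combined peak started at 24477. The others, at 2944877 to 2944887 and 15185161 to 15185169, covered 11 and 9 bp.

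Where combined and replicate 1 peaks overlapped, they marked nearly the same intervals. The start differed by a median of 14 bp (quartiles 3 to 32) and the end by 18 bp (quartiles 5 to 36), and in 105 of 149 pairs both ends agreed within 50 bp (70.5%, interval 62.5 to 77.7). Replicate 2 peaks were narrower, and 18 of the 20 combined peaks with replicate 2 support contained the whole replicate 2 interval. The combined −log10 q was higher than that of replicate 1 in 133 of 149 pairs (89.3%, interval 83.1 to 93.7), by a median of 0.78 (quartiles 0.37 to 1.40). On the other chromosomes without I this median difference was 0.79 (607 peaks). By part, it was 1.21 on the left arm (21 peaks), 0.72 in the centre (69) and 0.73 on the right arm (59). The greatest difference, 5.86, was that of the peak at 66316 to 66767. Strength ran together across the 149 pairs (Spearman's rho = 0.85, Pearson's r = 0.96). The lists share a library, so this is a description.

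**Figure D4:**
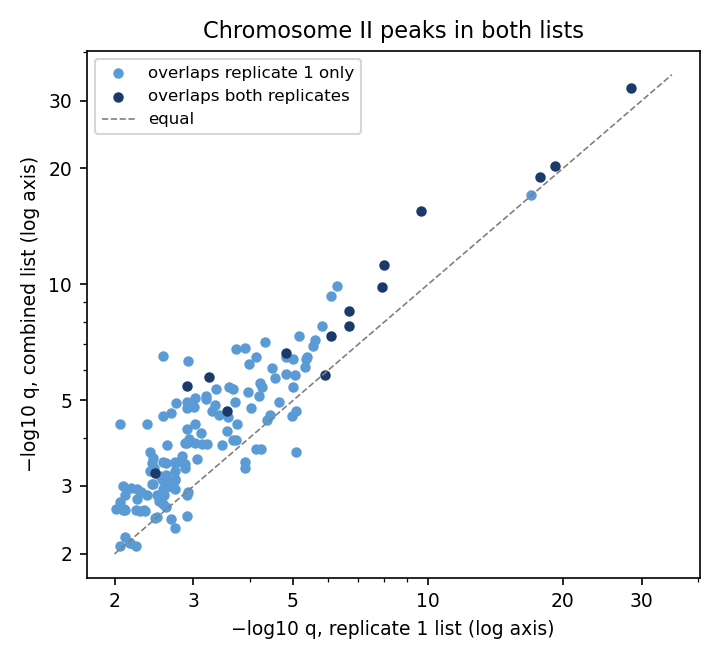
−log10 q in the combined list against −log10 q in replicate 1 for the 149 chromosome II peaks in both lists, on log axes, with peaks also found in replicate 2 in dark blue and a dashed line at equality. Most points, 133 of 149, lie above the line.

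Widths on chromosome II had a median of 169 bp (quartiles 67.5 to 257, range 2 to 1106), and the peaks covered 53781 bp or 0.352% of the chromosome. On the other chromosomes the median was 153 bp and the longest peak 11753 bp. The widest chromosome II peak was the one at 13290883 to 13291988, followed by 10598632 to 10599429 (798 bp, in neither replicate) and 2570289 to 2571029 (741 bp, in both). Peaks under 50 bp numbered 64 (22.6%, interval 17.9 to 27.9), against 25.7% elsewhere (interval 23.6 to 28.0). On the left arm 14 of 43 peaks were that short (32.6%, interval 19.1 to 48.5), and in the centre and on the right arm 20.9% and 20.8%. The 71 strongest peaks had a median width of 310 bp and only 1 was under 50 bp, while the 70 weakest had a median of 115.5 bp. Width and −log10 q were related over the 283 peaks (Spearman's rho = 0.48, Pearson's r = 0.50), given as a description because the points share their libraries.

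Neighbouring peaks were separated by a median of 21170.5 bp (quartiles 3939 to 66101, range 208 to 992855). The mean gap was 53848 bp, well above the median, with many close pairs beside long empty stretches. The median gap was 50653 bp on the left arm, 19363 bp in the centre and 19912 bp on the right arm. Gaps above 100 kb made up 16 of 42 on the left arm, 15 of 114 in the centre and 15 of 124 on the right arm. The longest stretch without a combined peak ran for 993 kb from 2965968 to 3958822. It was the longest of the combined list, where the other chromosomes reached at most 828 kb. In the replicate 1 list the longest gap was 903 kb on chromosome II, against 1374 kb on V and 904 kb on IV. The 993 kb stretch held 2 replicate 1 peaks and no replicate 2 peak. The next were 638 kb from 1654018 to 2291996 and 504 kb from 542829 to 1046578, both on the left arm and without a peak in any list.

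**Figure D5:**
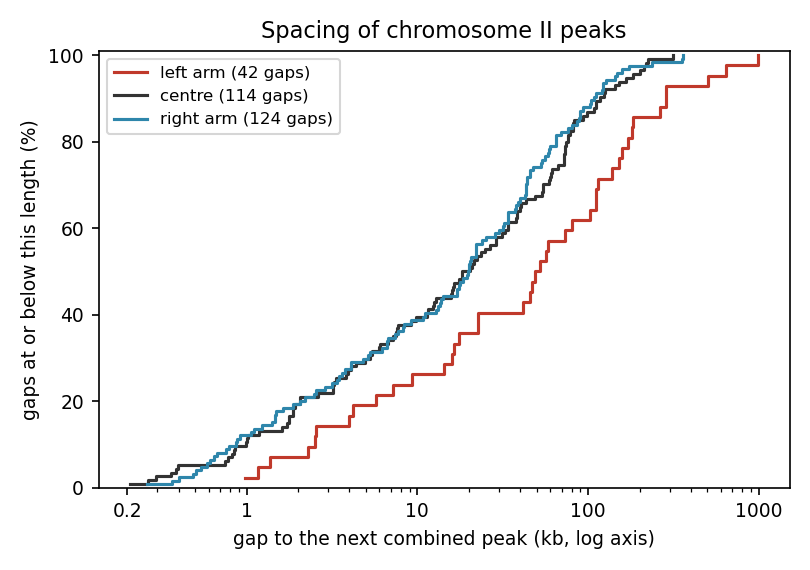
Cumulative share of gaps between neighbouring combined peaks (vertical axis, percent) by gap length in kb on a log axis, for the left arm, centre and right arm of chromosome II. The curve of the left arm lies to the right of the other curves, with a median of 50653 bp against 19363 and 19912 bp.

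Close pairs of peaks were a minority on chromosome II. Of 282 gaps on chromosome II, 28 were 1000 bp or shorter (9.93%, interval 6.70 to 14.0), against 106 of 1566 (6.77%, interval 5.57 to 8.13) on the other chromosomes, and the intervals overlap. Joined across such gaps, the 283 peaks formed 255 regions, of which 20 held 2 peaks and 4 held 3. The centre had 12 of these 24 runs, the right arm 11 and the left arm 1 (4.17%, interval 0.105 to 21.1, which includes the 15.2% of peaks that lie there). Gaps of 1000 bp or less made up 1 of 42 on the left arm (2.38%, interval 0.0603 to 12.6), 12 of 114 in the centre (10.5%, interval 5.56 to 17.7) and 15 of 124 on the right arm (12.1%, interval 6.93 to 19.2), and these intervals overlap. The 52 peaks in runs overlapped replicate 1 about as often as the 231 isolated peaks, in 55.8% (interval 41.3 to 69.5) and 51.9% (interval 45.3 to 58.5). In 6 of the 24 runs every peak overlapped replicate 1, and in 4 none overlapped either replicate.

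The 4 runs of 3 peaks all lay on the right arm. The first ran from 10546831 to 10549143 and was led by its last peak (563 bp, q = 3.82e-07), with 2 of 3 peaks in replicate 1. The second, from 10597765 to 10600200, spanned 2436 bp and contained the 798 bp peak noted above (q = 7.74e-05), and only its last peak, the weakest of the run, overlapped replicate 1. The third, from 11634132 to 11636112, had 2 of 3 peaks in replicate 1, where they were called with q = 5.84e-05 and 4.16e-05. The last, from 14405163 to 14406811, had its strongest peak in the middle (502 bp, q = 4.57e-07). Replicate 1 had 2 calls that overlapped that peak, and the stronger, at 14406308 to 14406480, had q = 0.00123. The peak before it overlapped 1 replicate 1 call, with q = 8.32e-06. This is the reverse of their order in the combined list, but it sets a call over part of a peak against a call over most of one. No peak of these 4 runs overlapped replicate 2. Of the 24 runs, 3 contained a peak found in both replicates, and they began at 7405297, 9281619 and 10501609.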

How the data were processed

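The authors deposited 3 peak lists, which are 1 for each ChIP replicate and a combined one. Per the labels' protocols, worms were crosslinked with 2% formaldehyde and chromatin was sheared by sonication. Positions follow WormBase WS220, per the file headers, and each line names the peak caller PeakSeq and gives the peak's deposited q-value, all below 0.01. The sources used here do not give the aligner, the settings, the read depth or the way of combining replicates. Whether the replicates were separate cultures is not stated.

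Here −log10 q, inclusive widths, gaps, 1 Mb bins (by midpoint) and 3 equal parts of the span were computed. The span ends at the last chromosome II peak in any list. Overlap required 1 bp, and a peak's replicate q is that of its strongest overlapping call. No tests were run. Intervals of shares are 95% exact (Clopper-Pearson), and the 95% intervals of medians run between ranked values set by the binomial distribution. The counting was tested on simulated lists. Peaks named are those with the lowest q-values in each support class, the widest, runs of 3 or more within 1000 bp, and the strongest calls of the replicate lists missed by the combined list. Members, rules and alternatives were chosen with earlier results of these data known. The computations ran in Python 3.11.15 with pandas 2.3.3, SciPy 1.17.1 and NumPy 2.4.6, and the plots in Matplotlib 3.10.9.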

Additional observations from a re-analysis of the deposited data

How the results depend on the processing

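Of 32 alternative values, 21 stayed within the 95% interval of the reported value, and the other 11 are given here. The share of peaks overlapping replicate 1 was 72.4% for peaks with q below 0.001 and 61.2% without peaks under 50 bp. The share overlapping replicate 2 was 4.24% when the midpoint of the combined peak had to lie in the replicate 2 peak. The share overlapping any replicate, 54.4%, was 7.07% with replicate 1 left out, since replicate 1 gives nearly all of the support. With replicate 2 left out it was 52.7%, which is within the interval. When the replicate 2 list (23 peaks) replaced the combined one, the share in the centre was 21.7%, that on the left arm 30.4% and the median width 84 bp. With the replicate 1 list these were 43.3%, 18.4% and 172 bp, all within the intervals. The median width was 225.5 bp for q below 0.001 and 195 bp without peaks under 50 bp, outside the interval of 139 to 186 bp. The median gap was 43879 bp for q below 0.001 and 30176 bp in replicate 1, because fewer peaks lie farther apart. Its interval in the combined list was 17006 to 29013 bp. The alternatives for the left arm were chosen after seeing the data. Read depth is unknown, so what each list could detect cannot be stated. No paired analysis was possible because no test was run and only the ChIP libraries have values in these lists.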

Other observations

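Many chromosome II peaks came in groups of nearly equal −log10 q. When the 64 peaks under 50 bp were ordered by −log10 q and separated wherever the step to the next exceeded 0.01, 50 of them fell in 10 groups of 3 or more (78.1%, interval 66.0 to 87.5). The largest held 8 peaks between 3.44 and 3.46, followed by 7 at 2.08 and 6 at 2.24. Among the 8 peaks of the largest group, 3 overlapped replicate 1 and 5 overlapped neither replicate. Peaks of 2 bp occurred in several of these groups, as at 6493771 to 6493772 in the centre, with q = 4.46e-05. Wider peaks formed such groups too. By the same step, 94 of the 219 peaks of 50 bp or more fell in 20 groups of 3 or more (42.9%, interval 36.3 to 49.8), the largest with 13 peaks of 111 to 252 bp between 2.60 and 2.62. The wider peaks are more numerous and span a larger range of strength. Such groups can form wherever many peaks lie close in strength, and how many would form in that way was not assessed. The shares are therefore given side by side without a comparison. The steps were noticed after the values were seen, and their source was not tested.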
